A study of Mus musculus with 2 samples.

Results

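The 8 receptor genes followed here, Glp1r, Gipr, Gcgr, Ffar1, Adra2a, Chrm3, Prlr and Ghr, encode incretin, nutrient and hormone receptors of the pancreatic islet and were measured by single-cell RNA sequencing of mouse islets. They were chosen by name as 8 of the 22383 features in the count matrices, with earlier results of these data known. Islets came from 5-week-old mice in 2 groups, with 1 library per group of 150 islets pooled from 4 mice. The control group carries the genotype label wildtype and consists of littermates. The other group, labelled TBL/RBKO and called TBL/RβKO here, carries Cre recombinase knocked into Ins1 together with floxed Tbl1x and Tbl1xr1, so that deletion of these transcriptional cofactors depends on Ins1-driven Cre and should be limited to β-cells. Islets of both groups were kept in culture overnight before cells were dissociated. As there was 1 library per group, no difference between the groups has a replicate check or a test. Intervals given here cover counting error of unique molecular identifiers (UMIs) only, at 95%, and say nothing about differences between animals.

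The receptors fall into several families. GLP-1R, GIPR and the glucagon receptor GCGR are class B receptors that couple to Gs and raise cAMP, which potentiates glucose-stimulated insulin secretion in β-cells, and GLP-1R is the target of incretin drugs. FFAR1, a receptor for long-chain fatty acids, and CHRM3, the muscarinic acetylcholine receptor of the β-cell, act through Gq and phospholipase C, whereas the α2A-adrenergic receptor ADRA2A couples to Gi and restrains insulin release. The prolactin receptor PRLR and the growth hormone receptor GHR are cytokine receptors that signal through JAK2 and STAT5, and PRLR is known for its role in β-cell expansion during pregnancy.

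In the mouse genome (GRCm39, GENCODE annotation) Glp1r lies on the plus strand of chromosome 17 from 31120525 to 31159765. Gcgr lies on the plus strand of chromosome 11 from 120413696 to 120429815. Gipr and Ffar1 are both on the minus strand of chromosome 7, at 18888169 to 18900228 and 30556815 to 30560989. Adra2a lies on the plus strand of chromosome 19 from 54032582 to 54037413. Prlr and Ghr are on chromosome 15, Prlr on the plus strand from 10177258 to 10349959 and Ghr on the minus strand from 3347235 to 3613024. Chrm3 is the longest of the genes, spanning 485362 bp on the minus strand of chromosome 13 from 9925522 to 10410883, while Ffar1 has a single exon within 4175 bp. Reads in introns as well as exons may be counted in such data, so levels were compared for 1 gene between classes and libraries and not between genes.

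RefSeq promoters (build GRCm38.p6, 250 bases before to 50 bases after a start) were found for 7 of the 8 genes, 10 promoters in all. Those of Glp1r, Gcgr and Adra2a are shown because these receptors had the largest differences of the 8 between the libraries in pancreatic polypeptide cells and had closely similar patterns over the islet classes. Capitals mark GC boxes (GGGCGG) and E-boxes (CANNTG), searched on both strands.
Glp1r, chr17:30901617-30901916, plus strand: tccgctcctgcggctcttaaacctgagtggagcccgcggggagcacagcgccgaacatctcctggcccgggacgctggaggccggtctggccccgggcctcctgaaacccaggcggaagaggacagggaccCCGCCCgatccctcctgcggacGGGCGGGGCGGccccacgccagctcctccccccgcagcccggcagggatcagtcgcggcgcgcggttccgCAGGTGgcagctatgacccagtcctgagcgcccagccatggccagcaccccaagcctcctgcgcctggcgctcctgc
Gcgr, chr11:120530477-120530776, plus strand: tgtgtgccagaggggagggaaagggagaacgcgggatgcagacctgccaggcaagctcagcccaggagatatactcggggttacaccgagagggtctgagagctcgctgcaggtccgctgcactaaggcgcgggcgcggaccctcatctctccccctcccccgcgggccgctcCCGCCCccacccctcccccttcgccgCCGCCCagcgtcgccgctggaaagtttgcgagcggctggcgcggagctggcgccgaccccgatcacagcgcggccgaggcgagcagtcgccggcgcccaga
Adra2a, chr19:54045009-54045308, plus strand: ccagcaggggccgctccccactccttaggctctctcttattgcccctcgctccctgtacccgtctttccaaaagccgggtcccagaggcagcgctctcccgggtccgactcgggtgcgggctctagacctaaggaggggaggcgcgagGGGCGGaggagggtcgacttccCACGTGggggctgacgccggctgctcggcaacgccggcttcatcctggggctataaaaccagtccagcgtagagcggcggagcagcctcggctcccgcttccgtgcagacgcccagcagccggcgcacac
The Glp1r promoter held 3 GC boxes, of which 2 overlap, and 1 E-box. The Gcgr promoter held 2 GC boxes and no E-box, and the Adra2a promoter 1 of each. Of the 10 receptor promoters, 4 held a GC box and 8 an E-box. A GC box was found in 35.7% and an E-box in 72.3% of all 32851 promoters of the same length. GC content was 73.7% for Glp1r, 71.7% for Gcgr and 68.7% for Adra2a, compared with a median of 52.7% over all promoters. The 2 Ghr promoters had GC contents of 67.0% and 52.3%, with 2 and 0 GC boxes. Those of Ffar1 and Chrm3 had 56.3% and 57.3% and no GC box. The 3 Prlr promoters had lower GC contents of 49.3%, 45.7% and 35.3% and no GC box. The last of them was the only 1 of the 10 with the homeobox core TAAT, which it held 6 times, and which 58.0% of all promoters hold. These matches describe letters in the window and no binding was measured.

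Of 7067 control barcodes, 4747 had more than 2500 detected genes and under 10% mitochondrial UMIs and were kept, as were 4179 of the 5833 barcodes of the library labelled TBL/RβKO. Each kept cell was placed by its largest hormone (Ins1 and Ins2 together, Gcg, Sst or Ppy) at 100 or more of every 10000 UMIs. The insulin class held 2877 control cells and 1338 cells of the library labelled TBL/RβKO, the glucagon class 1284 and 1546, the somatostatin class 223 and 374, the pancreatic polypeptide (PP) class 259 and 495, and 104 and 426 barcodes had no class. Classes matched their markers: Irx2 was at 109 and 90.8 UMIs of every 1000000 (counts per 1000000, CPM) in the glucagon class against 3.63 and 5.66 in the insulin class, and Hhex at 209 and 159 in the somatostatin class. In the insulin class all 9 β-cell markers exceeded 10 CPM in both libraries, although Mafa was at 463 in control against 85.5 in the library labelled TBL/RβKO. The targeted genes did not follow the label, since Tbl1x was at 96.9 and 351 and Tbl1xr1 at 20.0 and 129 CPM in the insulin class. UMIs counted over the whole of a gene need not show loss of a floxed part, so these values are no check of the deletion. UMIs of Cre were found in 274 insulin-class cells (20.5%) of the library labelled TBL/RβKO and in no control cell. Both libraries shared 12 kept barcodes. Insulin took 49.6% of insulin-class UMIs in control against 27.9% in the library labelled TBL/RβKO, and 49.5% and 76.7% of insulin-class cells had 6000 or more detected genes. Classes and levels below rest on raw UMIs, from which neither doublets nor free RNA had been removed.

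All 8 receptors were detected in the insulin class of both libraries. To compare libraries, the log2 ratio of CPM (library labelled TBL/RβKO over control) is given relative to the median of all genes tested in that class, which was 0.30 in the insulin, 0.10 in the glucagon, 0.02 in the somatostatin and 0.25 in the PP class. A gene was tested when its mean over both libraries was 5 or more CPM, and was called past 2-fold when this relative log2 ratio was at least 1 or at most -1 with its interval on 1 side of 0. In the insulin class, 8 receptors were tested, none was higher and 1, Prlr, was lower past 2-fold, where 4.14% of 9398 genes were higher and 2.14% lower. In the glucagon class 2 of 6 tested receptors, Glp1r and Chrm3, were higher and none was lower, beside 0.724% higher and 0.186% lower of 10220 genes. In the somatostatin class 1 of 7, Glp1r, was higher and none was lower, beside 0.945% and 0.62% of 10477 genes. In the PP class 5 of 8, Glp1r, Gcgr, Adra2a, Prlr and Ghr, were higher and none was lower, beside 4.26% and 1.27% of 9992 genes. Of these 5, Gcgr and Adra2a were under 5 CPM in control and passed the level limit only through the library where they were higher. Their inclusion in the count thus depended on the difference itself. The other 3 were above the limit in both libraries. The median relative log2 ratio over the tested receptors was -0.14, 0.19, 0.34 and 1.40 in the insulin, glucagon, somatostatin and PP class, against 0 by construction for all genes. Without the cells that held insulin at 100 or more per 10000, no receptor was higher and Prlr was lower in the glucagon class, beside 0.44% higher and 0.479% lower of 10227 genes. In the somatostatin class none was called in either direction, beside 0.8% and 0.648% of 10496 genes. In the PP class 4 receptors, all but Ghr of the 5, were higher and none was lower, beside 2.3% and 0.412% of 9960 genes. Of these 4, Gcgr and Adra2a were again under 5 CPM in control, so their inclusion depended on the difference itself.

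**Figure D1:**
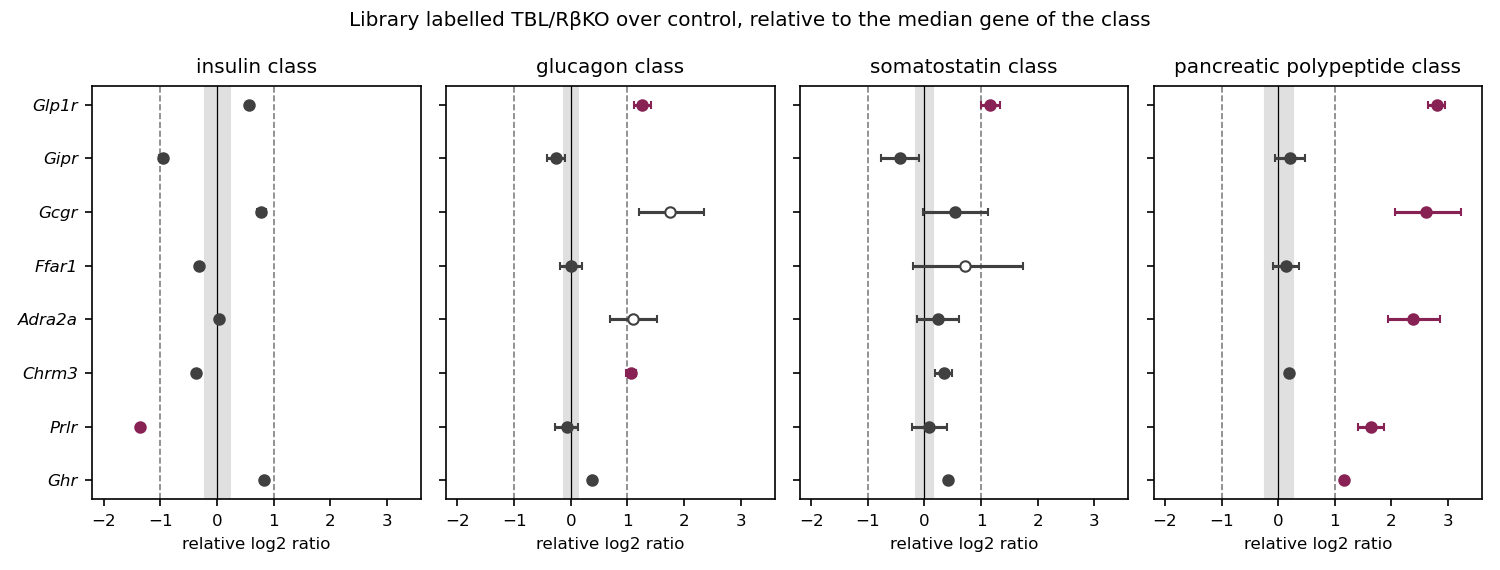
Relative log2 ratio of each receptor (x axis, library labelled TBL/RβKO over control, minus the median of all genes tested in the class) in the 4 hormone classes, with 95% intervals for counting error. Dashed lines mark 2-fold, the grey band the range between the quartiles of all genes, filled dark red points the calls past 2-fold and open points genes not tested for low level. Of the receptors, 5 lie beyond 2-fold in the PP class and only Prlr lies beyond it on the low side in the insulin class.

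Glp1r was the incretin receptor with the widest difference between classes. In control its level was 291 CPM (288 to 293) in the insulin class, 63.4 (56.9 to 70.5) in the somatostatin class, 33.2 (29.9 to 36.8) in the PP class, 17.2 (15.7 to 18.8) in the glucagon class and 6.12 (3.69 to 9.56) in barcodes of no class. In the library labelled TBL/RβKO it was 531 (526 to 535) in the insulin, 274 (267 to 281) in the PP, 144 (137 to 151) in the somatostatin, 44.4 (42.2 to 46.7) in the glucagon class and 15.6 (13.3 to 18.3) in barcodes of no class. No 2 neighbours in either order overlapped in their counting intervals, and the PP class stood above the somatostatin class only in the library labelled TBL/RβKO. In the insulin class the level was 1.82-fold that of control, a relative log2 ratio of 0.57 (0.55 to 0.59), which stayed under 2-fold. Its relative log2 ratio was 2.80 (2.65 to 2.95) in the PP class, an 8.25-fold ratio of CPM, 1.27 (1.12 to 1.42) in the glucagon class and 1.17 (1.00 to 1.34) in the somatostatin class.

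The differences in Glp1r outside the insulin class lay in part of the cells. In the glucagon class the share of cells with at least 1 Glp1r UMI was 28.0% (25.6 to 30.6, exact binomial) in control against 19.2% (17.3 to 21.3) in the library labelled TBL/RβKO, the opposite order to the summed level. After each cell was thinned to 5000 UMIs these shares were 8.31% and 7.63%, against 3.17% and 6.63% in barcodes of no class, whose median depth was 25560 and 17475 UMIs compared with 19733 and 18801 in the glucagon class. No control cell of the glucagon class held 10 or more Glp1r UMIs. The library labelled TBL/RβKO had 43 such cells of 1546 (2.78%), which held 69.1% of the Glp1r UMIs of the class. Of these cells, 37 also held insulin at 100 or more per 10000 and 39 had 6000 or more detected genes. Among PP-class cells 157 of 495 (31.7%) reached 10 UMIs, with 92.7% of the Glp1r UMIs, compared with 4 of 259 control cells. Thinned to 5000 UMIs, 38.6% of PP-class cells of the library labelled TBL/RβKO and 13.6% of those of control held a Glp1r UMI. In the somatostatin class the median cell was similar in both libraries, at 62.6 and 65.1 per 1000000 UMIs that were neither hormone nor mitochondrial (other UMIs), whereas the 90th percentile was 184 and 274.

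Gipr differed from Glp1r. Its level in control was 38.4 CPM (37.5 to 39.3) in the insulin class, 22.8 (18.9 to 27.2) in the somatostatin, 22.0 (20.3 to 23.8) in the glucagon and 15.1 (12.9 to 17.6) in the PP class, with overlapping intervals for the somatostatin and glucagon classes. The insulin class of the library labelled TBL/RβKO was at 24.3 (23.4 to 25.3), followed by 20.7 (18.8 to 22.7) in the PP, 19.7 (18.2 to 21.3) in the glucagon and 17.1 (14.6 to 19.8) in the somatostatin class, where each of the last 3 overlapped its neighbour. The relative log2 ratio in the insulin class was -0.95 (-1.02 to -0.89), just short of the 2-fold limit, and it was -1.14 when levels were taken per 1000000 other UMIs with no centring. In the glucagon, somatostatin and PP classes it was -0.26, -0.43 and 0.20. Barcodes of no class were at 3.54 and 3.70 CPM. The share of insulin-class cells with a Gipr UMI after thinning to 5000 UMIs was 17.9% in control against 12.1% in the library labelled TBL/RβKO.

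Gcgr, the receptor for glucagon itself, had few UMIs and was highest in the insulin class. Its level was 14.5 CPM (14.0 to 15.1) in control against 30.7 (29.6 to 31.8) in the library labelled TBL/RβKO, a relative log2 ratio of 0.78 (0.71 to 0.86). In glucagon cells it was at 1.18 (0.818 to 1.65) and 4.29 (3.62 to 5.05) and was not tested. These intervals overlapped that of barcodes of no class in each library. In the library labelled TBL/RβKO, 14 of the 27 Gcgr UMIs in barcodes of no class came from 144 without a marker-based name. That overlap therefore depends on the barcodes used. The PP-class level was 2.52 (1.68 to 3.65) from 28 UMIs in control against 18.3 (16.5 to 20.2) from 384 UMIs in the library labelled TBL/RβKO, a relative log2 ratio of 2.61 (2.06 to 3.22). The control interval overlapped that of barcodes of no class, which reached 1.80, so the size of this ratio rests on a control level near the background. The somatostatin class was at 6.90 and 10.1, with a relative log2 ratio of 0.54 whose interval of -0.02 to 1.12 included 0.

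**Figure D2:**
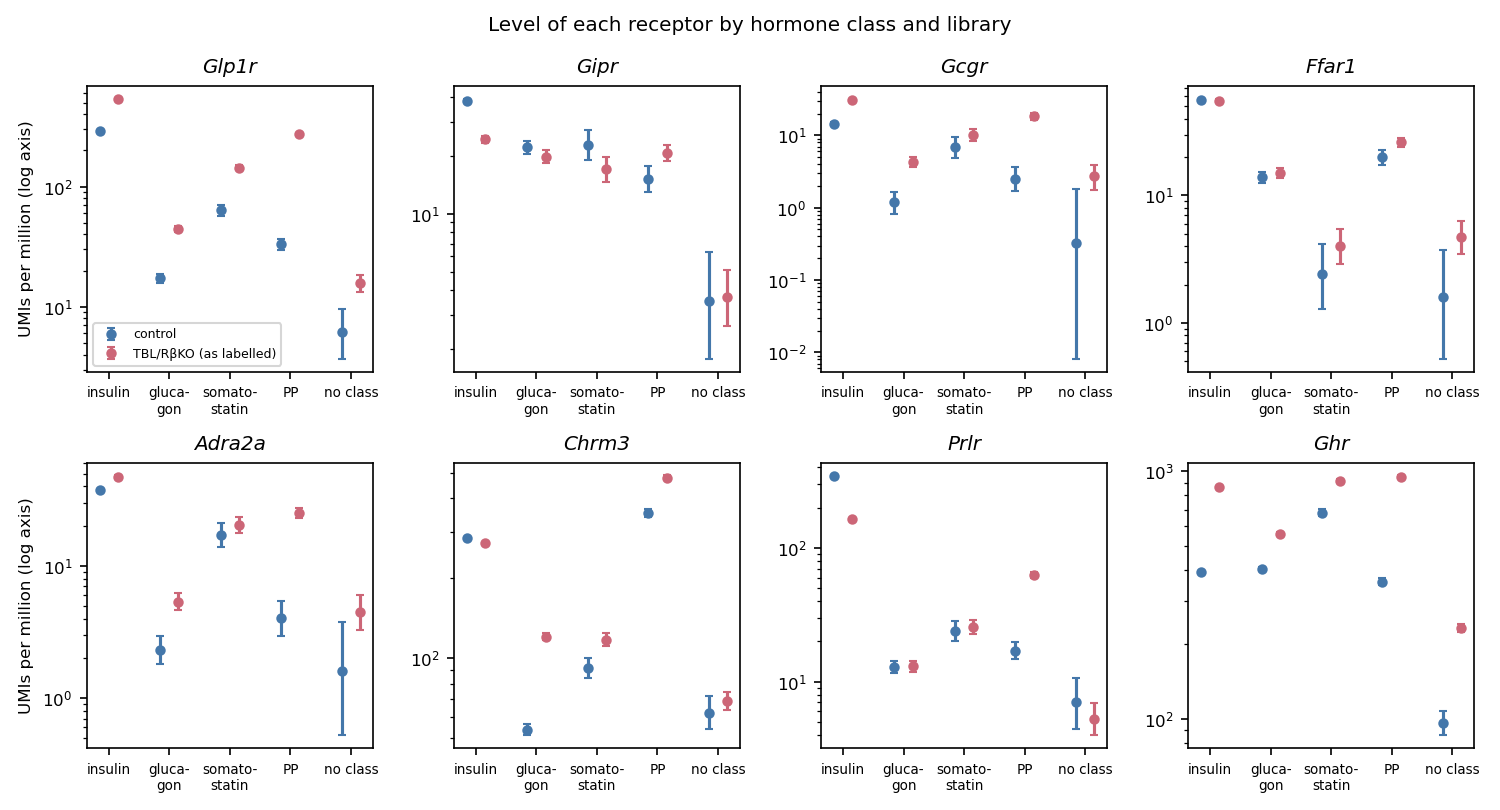
CPM (y axis, log scale) of each receptor in the 4 hormone classes and in barcodes of no class, for control (blue) and the library labelled TBL/RβKO (red), with exact Poisson intervals. Glp1r in the PP class stood at 33.2 in control against 274 in the library labelled TBL/RβKO, and Prlr in the insulin class at 344 and 165.

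Of the Gq-coupled receptors, Ffar1 differed least between the libraries. Its level in the insulin class was 55.9 CPM (54.9 to 57.0) in control against 55.2 (53.7 to 56.6) in the library labelled TBL/RβKO, a relative log2 ratio of -0.32 where the median gene was at 0.30 before centring. The PP class followed at 20.0 (17.5 to 22.8) and 26.0 (23.9 to 28.3) and the glucagon class at 13.9 (12.6 to 15.4) and 15.0 (13.7 to 16.3). Somatostatin cells, at 2.43 and 4.05, overlapped barcodes of no class in both libraries, and Ffar1 was not tested there. Barcodes of no class held 47 Ffar1 UMIs in the library labelled TBL/RβKO. Of these, 22 came from barcodes without a marker-based name and 20 from B cell-like barcodes. The relative log2 ratio was 0.00 (-0.19 to 0.20) in the glucagon and 0.13 (-0.09 to 0.37) in the PP class.

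Chrm3 was the only receptor of the 8 that was highest in the PP class in both libraries, at 353 CPM (342 to 364) in control against 479 (470 to 488) in the library labelled TBL/RβKO. The insulin class followed at 283 (281 to 286) and 270.5 (267 to 274). In control the somatostatin class was at 91.6, barcodes of no class at 62.2 and the glucagon class at 53.7 (51.1 to 56.4), the last 2 overlapping. Of the Chrm3 UMIs in barcodes of no class, 127 of 193 in control came from endothelial-like barcodes. In the library labelled TBL/RβKO, 504 of 688 came from barcodes without a marker-based name. The glucagon class of the library labelled TBL/RβKO was at 120.5 (117 to 124), overlapping the somatostatin class at 117 (111 to 124) and above barcodes of no class at 68.9 (63.8 to 74.2). For Chrm3 the relative log2 ratio was 1.07 (0.98 to 1.15) in the glucagon class, -0.36 (-0.38 to -0.34) in the insulin class, 0.34 in the somatostatin and 0.19 in the PP class. In the glucagon class the share of cells with a Chrm3 UMI was 37.6% and 35.6%, and 16.7% and 22.1% after thinning to 5000 UMIs. Cells with 10 or more Chrm3 UMIs numbered 35 (2.73%) in control against 128 (8.28%) in the library labelled TBL/RβKO and held 35.0% and 66.6% of the Chrm3 UMIs. Of the 128 cells, 36 held insulin at 100 or more per 10000.

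Adra2a, the Gi-coupled receptor, was highest in the insulin class, with 37.5 CPM (36.6 to 38.4) in control against 47.0 (45.7 to 48.4) in the library labelled TBL/RβKO. There the relative log2 ratio was 0.03 (-0.02 to 0.09). In control the somatostatin class followed at 17.2 (13.8 to 21.05), the PP class at 4.05 (2.96 to 5.42) and the glucagon class at 2.33 (1.80 to 2.96), which overlapped barcodes of no class at 1.61. The PP class of the library labelled TBL/RβKO was at 25.1 (23.0 to 27.3), overlapping the somatostatin class at 20.4 (17.8 to 23.4). The relative log2 ratio in the PP class was 2.38 (1.94 to 2.86), from 45 and 526 UMIs, and the control interval overlapped that of barcodes of no class, which reached 3.76. The glucagon class, at 5.37, again overlapped barcodes of no class at 4.51 and was not tested. Those barcodes held 45 Adra2a UMIs in the library labelled TBL/RβKO. Of these, 19 came from barcodes without a marker-based name and 22 from stromal-like barcodes.

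The cytokine receptors Prlr and Ghr differed in opposite directions in the insulin class. Prlr was at 344 CPM (341 to 347) in control against 165 (162 to 167) in the library labelled TBL/RβKO, a relative log2 ratio of -1.36 (-1.39 to -1.34). The median insulin-class cell had 673 Prlr UMIs per 1000000 other UMIs in control against 162 in the library labelled TBL/RβKO, with 10th and 90th percentiles of 159 and 1452 compared with 22.3 and 717. After thinning to 5000 UMIs, 72.1% and 45.6% of insulin-class cells held a Prlr UMI. All other classes of both libraries were below this, at 24.1 and 25.8 in the somatostatin class and 12.8 and 13.1 in the glucagon class, where the relative log2 ratios of 0.09 and -0.07 had intervals that included 0. A Prlr UMI was found in 21.2% of control glucagon cells against 8.09% in the library labelled TBL/RβKO, or 6.26% and 2.67% after thinning, compared with 16.3% and 6.81%, or 4.56% and 2.64%, in barcodes of no class. Median depths were 19733 and 18800.5 UMIs in the glucagon class and 25559.5 and 17474.5 in those barcodes. The glucagon-class shares were thus near those of all barcodes of no class. In the library labelled TBL/RβKO, however, 45 of the 53 Prlr UMIs in such barcodes came from 144 without a marker-based name. A Prlr UMI was found in 14.6% of these, in 8.06% of B cell-like, 1.98% of stromal-like and no endothelial-like barcodes. The background in that library therefore depends on the barcodes used. The PP class was at 17.0 (14.7 to 19.6) in control against 62.9 (59.5 to 66.4) in the library labelled TBL/RβKO, a relative log2 ratio of 1.64 (1.42 to 1.87). In that library 38 PP-class cells (7.68%) with 10 or more Prlr UMIs held 53.6% of them, and 33 of these cells held insulin at 100 or more per 10000.

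Ghr was present in every class. In control it was highest in the somatostatin class at 679.6 CPM (658 to 702), followed by the glucagon class at 403 (396 to 411) and the insulin class at 394 (391 to 396), which overlapped, and the PP class at 358 (347 to 369). In the library labelled TBL/RβKO it was at 948 (935 to 962) in the PP, 916 (897 to 934) in the somatostatin, 860.1 (854 to 866) in the insulin and 559 (551 to 567) in the glucagon class, with no overlap between neighbours. Barcodes of no class were at 96.3 and 233. All 4 relative log2 ratios were above 0, with 1.16 (1.11 to 1.21) in the PP class, 0.83 (0.82 to 0.85) in the insulin class, 0.42 in the somatostatin and 0.37 in the glucagon class. The PP-class ratio fell short of 2-fold in 6 of 10 alternatives and was lowest, at 0.66, without insulin-holding cells. Of the insulin-class cells, 79.6% in control against 90.5% in the library labelled TBL/RβKO held a Ghr UMI after thinning to 5000 UMIs.

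Because insulin itself differed between the libraries, the receptors were also compared between insulin-class cells with similar insulin. Levels are given here per 1000000 other UMIs, so that insulin UMIs do not enter the denominator. Among cells with insulin at 5000 or more per 10000 (1532 control cells and 141 of the library labelled TBL/RβKO), Glp1r was at 701 and 681, Ghr at 777 and 784 and Gcgr at 36.0 and 36.3, and all 3 log2 ratios had intervals that included 0. In the same cells Gipr was at 88.6 and 49.9, a log2 ratio of -0.83 (-1.03 to -0.64), Chrm3 at 576 and 416 (-0.47) and Prlr at 827 and 675 (-0.29, -0.35 to -0.24). At 2500 to 5000 per 10000 (1100 and 495 cells) Prlr was at 727 and 337, a log2 ratio of -1.11 (-1.15 to -1.07), Gipr at 82.1 and 41.9 (-0.97) and Chrm3 at 691 and 395 (-0.81), while Glp1r was at 611 and 821 (0.43). At 1000 to 2500 (82 and 459 cells) Glp1r was at 251 and 874, a log2 ratio of 1.80 (1.71 to 1.89), Gcgr at 16.5 and 49.1 (1.57) and Ghr at 770.2 and 1424 (0.89), and Prlr at 275 and 157 (-0.81).

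In control, all receptors but Chrm3 and Ghr had higher levels at each higher range of insulin. In the library labelled TBL/RβKO, Prlr ranged from 121 at 500 to 1000 insulin UMIs per 10000 to 675 at 5000 and over, and Ffar1 from 37.1 at 100 to 500 to 135 at 5000 and over. Between the libraries Ffar1 differed little in the 3 ranges from 1000 upward, with log2 ratios of 0.24 (0.04 to 0.44), 0.04 (-0.03 to 0.11) and -0.01 (-0.13 to 0.11). In contrast, Ghr was lower at each higher range, from 1862 at 100 to 500 to 784 at 5000 and over, and Glp1r stayed between 681 and 874. At 100 to 500 (150 and 75 cells) Glp1r was at 41.8 and 701, and Chrm3 at 137 and 555. These low-insulin cells were not of the same kind in both libraries. Their median depth was 8974 and 43146 UMIs, 31.3% and 60.0% held a second hormone, and the β-cell factor Nkx6-1 was at 42.4 and 143 per 1000000 other UMIs. At 1000 to 2500, 91.5% of control and 82.1% of the other cells held a second hormone, and Mafa was at 302 and 32.1. The part of these differences in the receptor values was not tested.

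**Figure D3:**
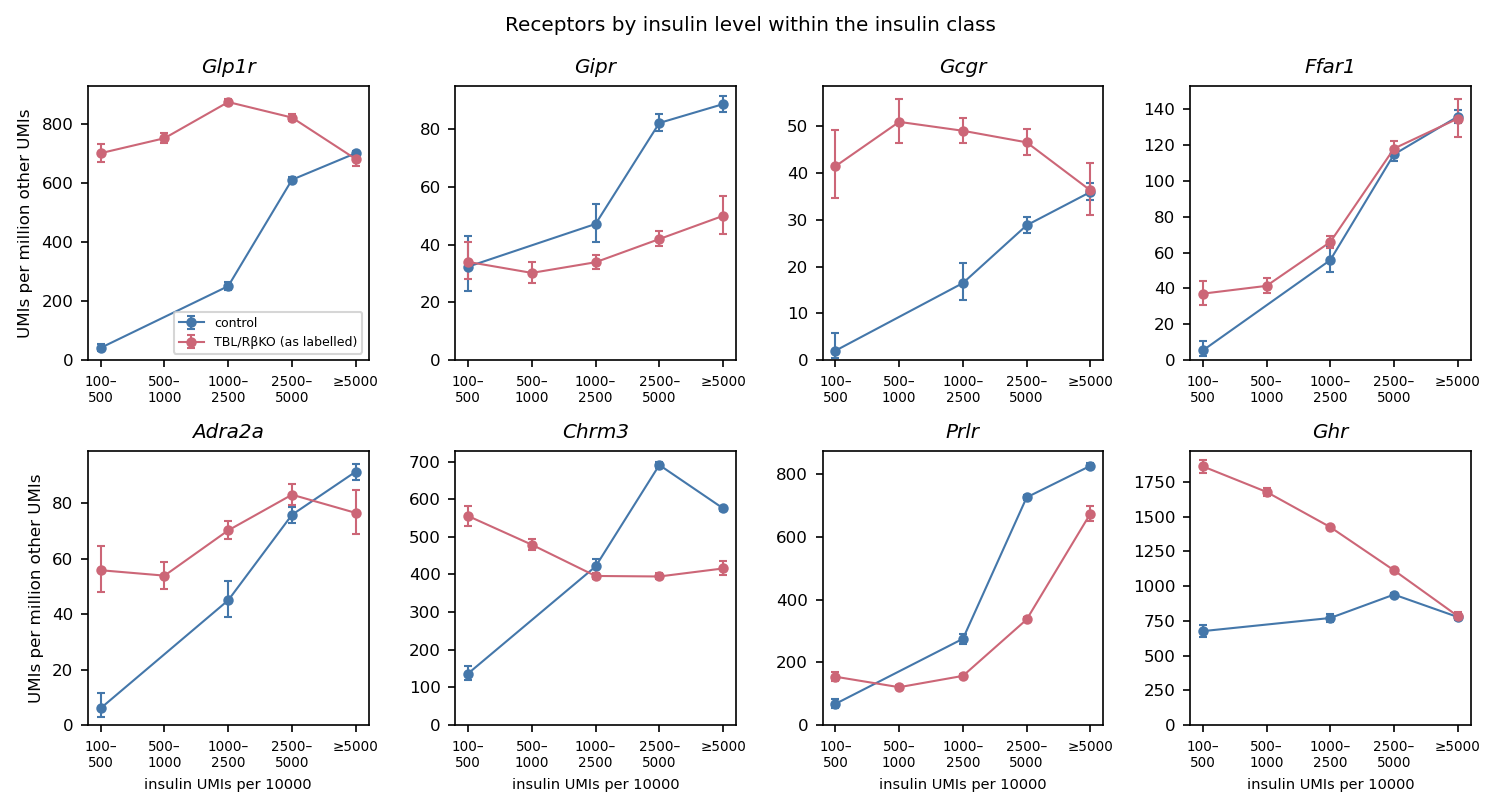
UMIs of each receptor per 1000000 UMIs that were neither hormone nor mitochondrial (y axis) in insulin-class cells grouped by insulin UMIs per 10000 (x axis), for control (blue) and the library labelled TBL/RβKO (red), with exact Poisson intervals. The control range of 500 to 1000 held 13 cells and is not drawn. Glp1r, Gcgr and Ghr meet at the highest insulin range, whereas Gipr, Chrm3 and Prlr are lower there in the library labelled TBL/RβKO.

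Within the insulin class of the library labelled TBL/RβKO, the 274 cells with a Cre UMI and the 1064 without were also set side by side. A cell without a Cre UMI need not lack Cre or the deletion, since a transcript can go undetected. The log2 ratio of cells with over cells without a Cre UMI ranged from -0.25 for Ghr to 0.55 for Ffar1, and was 0.10 for Glp1r and 0.15 for Prlr. Against all control insulin cells, cells without a Cre UMI had Prlr at 247 and Gipr at 35.5 per 1000000 other UMIs compared with 739.95 and 82.5, log2 ratios of -1.58 and -1.22. A second hormone was present in 813 of the 1338 cells, and Prlr was at 159 in these and 461 in the 525 others, a log2 ratio of -1.54 (-1.59 to -1.50). Ffar1 differed in the same direction, with 64.8 and 129, while Gcgr was at 46.8 and 48.0. Between single-hormone cells of both libraries (2409 control cells), Prlr was at 846 and 461 per 1000000 other UMIs and its relative log2 ratio was -0.73, short of 2-fold.

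In the glucagon and somatostatin classes, the calls depended on cells that also held insulin or many detected genes. In the glucagon class, 90 cells of the library labelled TBL/RβKO with insulin at 100 or more per 10000 had Glp1r at 314 per 1000000 other UMIs and the 1456 others at 20.5. The matching control values were 29.6 in 603 cells and 18.9 in 681 cells. Prlr was at 95.3 in the 90 cells and 5.64 in the 1456, compared with 24.1 and 12.9 in control. Left without insulin-holding cells, the glucagon class had relative log2 ratios of 0.07 for Glp1r, 0.66 for Chrm3 and -1.23 for Prlr, so that no receptor was higher and 1 was lower past 2-fold. With single-hormone cells, and with cells under 6000 detected genes, Glp1r was at -0.50 and -0.53 and Prlr was at -1.55 and -1.997. Prlr was at 0.70 in all cells of the class once RNA from other classes was subtracted (below), so its sign depended on the processing. The 90 cells had a median of 37519 UMIs and 52.2% had 6000 or more detected genes, while the 603 control cells had 16563 and 6.47%. In the 90 cells Nkx6-1 was at 70.6 and Mafa at 1.88 per 1000000 other UMIs, compared with 23.9 and 0.932 in the 1456. Whether such cells are single cells with both hormones or doublets was not tested.

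In the somatostatin class, Glp1r had a relative log2 ratio of 0.57 without insulin-holding cells and 0.05 under 6000 detected genes, where Prlr was at -2.32. For PP cells the differences in Glp1r, Adra2a, Gcgr and Prlr remained past 2-fold without insulin-holding cells, and that in Ghr did not. Adra2a and Gcgr passed the level limit there only through the library where they were higher. Among cells with insulin under 100 per 10000 (196 and 339 cells), Glp1r was at 38.2 and 155 per 1000000 other UMIs, Adra2a at 4.29 and 14.6, Gcgr at 4.29 and 10.97 and Prlr at 12.9 and 34.5, with relative log2 ratios of 2.00, 1.75, 1.33 and 1.40. Ghr, with 558 and 896 in these cells, had a relative log2 ratio of 0.66. PP-class cells with insulin (63 and 156 cells) had Glp1r at 114 and 595, Prlr at 86.0 and 138 and Ghr at 628 and 1660. In the 156 cells of the library labelled TBL/RβKO, Tbl1x was at 680, compared with 311 in the 339 cells without that insulin level. In single-hormone PP cells (113 and 210 cells) Glp1r, Adra2a and Prlr were past 2-fold, with relative log2 ratios of 2.77, 2.45 and 1.48, and Gcgr was under the level limit.

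**Figure D4:**
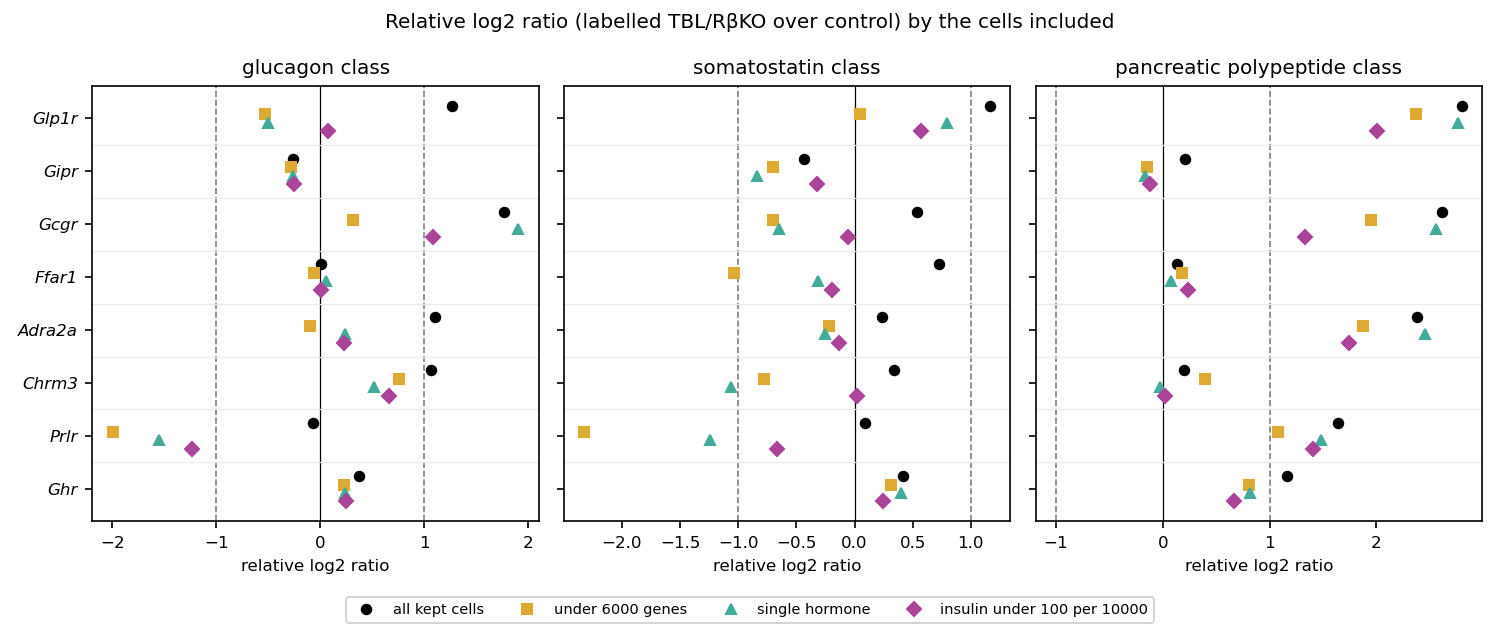
Relative log2 ratio (x axis, library labelled TBL/RβKO over control) of each receptor in the glucagon, somatostatin and PP classes with all kept cells and with 3 subsets of cells, named in the key. Dashed lines mark 2-fold. In the PP class the 4 values of Glp1r, Adra2a, Gcgr and Prlr all lie beyond 2-fold, although Gcgr in single-hormone cells was under the level limit for a call, whereas Glp1r in the glucagon class ranges from -0.53 to 1.27.

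Transcripts released from insulin cells were also allowed for by subtracting the receptor UMIs that insulin UMIs of a class would bring at the ratio seen in the insulin class of the same library. In the control PP class this left 49 of 189 Prlr UMIs (25.9%) and 251 of 369 Glp1r UMIs (68.0%). In the PP class of the library labelled TBL/RβKO it left 1087 of 1319 (82.4%) and 5002 of 5752 (87.0%). In the glucagon class 42.0% of Prlr UMIs were left in control against 71.9% in the library labelled TBL/RβKO, while between 96.2% and 97.9% of Gipr and Ghr UMIs were left in both. The relative log2 ratio of Prlr in that class was then 0.70, compared with -0.07 before subtraction.

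The cells of no class gave a view of receptors outside endocrine cells. Barcodes with markers of macrophages (36 and 51 cells) had Chrm3 at 7.17 and 4.04 CPM and Ghr at 22.7 and 12.1 CPM. Endothelial-like barcodes (23 and 35 cells) were higher for Chrm3, at 145 and 103, and for Ghr, at 101 and 152. Stromal-like barcodes (29 and 101 cells) had Ghr at 98.6 and 97.6 and Glp1r at 8.30 and 5.97. In the library labelled TBL/RβKO, 144 barcodes of no class and without a marker-based name had Ghr at 826 and Chrm3 at 231 and account for 1802 of the 2324 Ghr UMIs of this group, while the control library held 14 such barcodes.

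Genes that act with these receptors were taken from 7 lists of 159 genes. In the insulin class 94 were tested, of which 11 were higher and 5 lower past 2-fold, beside 4.14% and 2.14% of all genes tested. The 5 highest relative log2 ratios were those of Rgs4 (4.98, from 15.5 to 601 CPM), a GTPase-activating protein for Gi and Gq, the prostaglandin receptor gene Ptger3 (2.84, from 1.10 to 9.69 CPM), Pyy (2.82), which encodes peptide YY, the orphan receptor gene Gprc5c (2.65) and Rgs16 (2.17), another regulator of G-protein signalling. The 5 lower genes were Trpm5 (-1.81), a calcium-activated cation channel, the purinergic receptor gene P2ry1 (-1.73), Dpp4 (-1.61), whose protease inactivates GLP-1 and GIP, the cannabinoid receptor gene Cnr1 (-1.08) and Rgs2 (-1.04). Ptger3, Gprc5c and Bcl6 among the higher genes and P2ry1 and Cnr1 among the lower were under 5 CPM in the library where they were lower and entered the count only through the other library. Of 24 tested genes for Gs and cAMP signalling, 1 was higher (Irs2, 1.11) and none lower, with a median of 0.06 against 0 for all genes. Of 10 for Gi/o signalling 2 were higher (Rgs4 and Rgs16), with a median of 0.54. Of 11 genes of JAK/STAT signalling 1 was higher (Bcl6, 1.26) and the median was 0.43, and of 14 genes of Gq and phospholipase C signalling 1 was higher (Prkd1, 1.23) and 2 were lower. The desensitisation list had 1 higher gene of 8 (Grk3, 1.30), the other islet receptors 3 higher and 2 lower of 19, and the ligands and their enzymes 2 higher and 1 lower of 8.

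In the glucagon class 99 of the listed genes were tested and 1 was higher, Socs3, a feedback inhibitor of cytokine receptors, at 16.8 and 39.1 CPM and a relative log2 ratio of 1.12 (0.97 to 1.27), and none was lower, a share near the 0.724% higher and 0.186% lower of all genes. In the somatostatin class 5 of 103 were higher and 1 was lower, beside 0.945% and 0.62%. Of the 5, Ucn3 was under 5 CPM in control (4.66 against 22.5) and entered the count only through the other library. In the PP class 14 of 97 were higher and none was lower, beside 4.26% and 1.27%, and 2 of the 14, Rgs16 and Stat5a, were under 5 CPM in control. Rgs4 was at 37.6 and 383 CPM there, a relative log2 ratio of 3.11. Stat5a, the transducer of both cytokine receptors, was at 3.69 and 12.3 CPM there, from 41 and 259 UMIs.

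The genes with patterns most like each receptor were sought by Pearson's correlation of log2(CPM + 1) over 10 sums (the 4 hormone classes and no class in both libraries) among 9249 genes. These sums share libraries and free RNA, so the values only describe the pattern. Glp1r was most like Gsdma, B830017H08Rik and Prkar2b, a regulatory subunit of protein kinase A (r = 0.97 for each). Gcgr was most like Prkar2b, Glp1r and Spock2 (0.98 for each), and Adra2a most like Sdk2, Glp1r and Prkar2b (0.98, 0.96 and 0.96). Prlr was closest to Prss53, Bace2 and Papss2 (0.98, 0.98 and 0.96), Gipr to Btbd17, Aldh5a1 and Lrrc10b (0.97, 0.97 and 0.96) and Ffar1 to Gabbr2, Ociad2 and Dmpk (0.94, 0.93 and 0.93). Ghr was closest to Dnai1, Fhad1 and Cyfip2 (0.99 for each). Chrm3 had the lowest values, with Galr1, a galanin receptor gene, Slc4a10 and Nkx6-1 at 0.91, 0.89 and 0.85.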

How the data were processed

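Droplet libraries (Chromium 3′ chemistry) were made from pooled islets. The deposited matrices hold whole UMI counts for each gene in each filtered barcode, made by the authors with Cell Ranger 7.1.0. The submitters' processing notes name GRCm39. Depth was 241434108 and 185062206 UMIs for control and the library labelled TBL/RβKO, and medians per kept cell were 40626 and 27425. Barcodes with more than 2500 genes and under 10% mitochondrial UMIs were kept without the upper limit of 6000 genes used in the study, and no doublet caller was run. UMIs were summed per library and hormone class, since cells are not replicates, and expressed per 1000000 UMIs (CPM). Intervals are exact Poisson for levels and exact binomial (Clopper-Pearson) for shares and ratios. Shares were thinned to 5000 UMIs by the exact hypergeometric expectation, and no cell was too shallow. Summed counts with known folds were used to check the call rule on simulated data. Receptors were named in full. From the lists, the 5 highest and 5 lowest genes past 2-fold in the insulin class and every gene past 2-fold in the glucagon class were named, together with 3 similar genes per receptor. Irs2, Bcl6, Prkd1, Grk3, Ucn3 in the somatostatin class, and Rgs4, Rgs16 and Stat5a in the PP class were named after their values were seen. Receptors and lists were chosen with earlier results of these data known. Alternatives covered scaling, centring, class limit, detected genes, second hormones, mitochondrial share, equal weight per cell, subtraction of RNA from other classes and low values. Leaving out insulin-holding cells was added after the data were seen. Positions came from GENCODE M39 on GRCm39 by Ensembl identifier and promoters from RefSeq on GRCm38.p6. Software was Python 3.11.15, numpy 2.4.6, scipy 1.17.1, pandas 2.3.3 and matplotlib 3.10.9.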

Additional observations from a re-analysis of the deposited data

Results flagged for a closer look

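Chrm3 and Prlr differed between the libraries in opposite directions in different classes. The relative log2 ratio of Chrm3 was 1.07 in the glucagon class and -0.36 in the insulin class, a gap of 1.43. That of Prlr was 1.64 in the PP class and -1.36 in the insulin class, a gap of 3.00. Both intervals lay on opposite sides of 0, but each value rests on 1 library per group and the difference between classes was not tested. Of the 5752 Glp1r and 1319 Prlr UMIs in the PP class of the library labelled TBL/RβKO, 92.7% and 53.6% lay in cells with 10 or more UMIs of that gene.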

How the results depend on the processing

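With no centring, 2 receptors (Gcgr and Ghr) were higher in the insulin class, and per 1000000 other UMIs with no centring 2 (Gipr and Prlr) were lower. Under 6000 detected genes, 0 receptors were higher and 1 lower in the glucagon and likewise in the somatostatin class, and Glp1r in the glucagon class was at -0.53. With the class limit at 500 per 10000, 0 were higher in each of these classes. In single-hormone cells 0 were lower in the insulin class, 0 were higher and 1 lower in the glucagon class with Glp1r at -0.50, 0 were higher and 2 lower in the somatostatin class, and 3 were higher in the PP class. In that class 4 were higher under 6000 detected genes, with the class limit at 500, with a mitochondrial share under 5%, with equal weight per cell and without insulin-holding cells, and Ghr was the call lost in each, with relative log2 ratios of 0.80, 0.96, 0.96, 0.995 and 0.66. With a mitochondrial share under 5%, 1 was higher in the glucagon and 0 in the somatostatin class. With equal weight per cell, 0 were higher and 1 lower in the glucagon class and 0 higher in the somatostatin class. With no filter on low values, 2 were lower in the insulin and 4 higher in the glucagon class. Without insulin-holding cells, an alternative chosen after seeing the data, 0 were higher and 1 lower in the glucagon class and 0 higher in the somatostatin class. For the centring and the filter the changed reference or level limit sets the count, and for the other alternatives the cause was not tested. In the insulin class the lowest and highest ratios of Glp1r, Gipr, Gcgr, Adra2a, Chrm3 and Ghr came with no centring on either scale, as for Gcgr at 0.60 and 1.08. Over the alternatives, Glp1r ranged from 2.00 to 3.15 and Prlr from 1.08 to 3.31, the latter with RNA of other classes subtracted, in the PP class, and Prlr from -1.55 to -0.73 in the insulin class. No paired analysis was possible because each group had 1 library, and for the same reason no replicate could be left out. Gcgr, Adra2a and Ffar1 are limited by depth outside the insulin class.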

Other observations

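Barcodes that did not pass the filter on genes and mitochondrial share (2320 for control, 1654 for the library labelled TBL/RβKO) also carried receptor UMIs. Prlr was at 461 and 93.4 CPM in them, Gipr at 130.2 and 39.6, Chrm3 at 741 and 356 and Ghr at 953 and 1075. Relative to the median gene, the log2 ratios were -2.45 for Prlr, -1.86 for Gipr, -1.53 for Ffar1, -1.20 for Chrm3, -0.91 for Gcgr, -0.76 for Adra2a, -0.40 for Glp1r and 0.03 for Ghr. Those of Glp1r and Gcgr were thus opposite in sign to their insulin-class ratios of 0.57 and 0.78. These barcodes were not sorted by hormone class.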
